A study of Mus musculus with 4 samples.

Results

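Pim1, Pim2 and Pim3 encode the PIM kinases, serine/threonine kinases that promote the survival and growth of blood cells. They were taken from the deposited tables by gene symbol and make up 3 of the 16566 listed genes. All 3 passed the filter on low counts and were among the 11611 genes tested. The libraries were made from bone marrow neutrophils of C57BL/6 mice, isolated at a stated purity above 95% and cultured 1 h in 20% fetal bovine serum. In the ruxolitinib group (2 libraries) the cells were given ruxolitinib, a drug that blocks the kinases JAK1 and JAK2 bound to cytokine receptors, for 1 h. In the vehicle group (2 libraries) they received the solvent mixture, 80% glucose and 20% PEG300, for 1 h. The treatment label gives 0.1 µM ruxolitinib while the protocol gives 1 µM, so the concentration is uncertain. The labels give no genotype other than the strain and neither age nor sex, and they do not say whether the libraries came from separate mice, so p-values measure the spread between these libraries, which may be technical.

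PIM kinases have no regulatory domain that must be switched on. They are active once made, so their activity follows their amount, which is set largely by transcription and by the short life of their transcripts and proteins. Cytokines that signal through JAK kinases and STAT transcription factors, among them the granulocyte growth factor G-CSF, are known to induce Pim1, and NF-kB is another known inducer. The kinases phosphorylate proteins of cell death, cell cycle and translation control, including the death promoter BAD.

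The 3 genes lie on different chromosomes, and their deposited Entrez identifiers matched RefSeq's annotation of GRCm38.p6, which is also the build named by the submitters. Pim1 (Entrez 18712) spans chr17:29490785-29496111, Pim2 (18715) spans chrX:7878306-7883432, and Pim3 (223775) spans chr15:88862194-88865726, each on the plus strand with 6 exons in the longest coding transcript. The promoter sequences are shown as a description of the genes, and their part in any difference between libraries was not tested. They are RefSeq's GRCm38.p6 plus strand from base 250 to base 51 before the annotated start, with matches to any of 9 motifs in capitals.
Pim1, chr17:29490535-29490734: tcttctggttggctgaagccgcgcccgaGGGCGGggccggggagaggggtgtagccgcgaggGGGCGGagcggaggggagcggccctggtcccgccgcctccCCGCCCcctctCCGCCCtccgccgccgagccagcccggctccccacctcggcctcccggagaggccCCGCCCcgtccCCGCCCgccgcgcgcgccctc
Pim2, chrX:7878056-7878255: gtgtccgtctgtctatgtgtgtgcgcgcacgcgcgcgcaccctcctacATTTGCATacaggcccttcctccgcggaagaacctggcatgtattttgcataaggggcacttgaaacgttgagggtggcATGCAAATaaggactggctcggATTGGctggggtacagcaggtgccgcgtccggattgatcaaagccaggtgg
Pim3, chr15:88861944-88862143: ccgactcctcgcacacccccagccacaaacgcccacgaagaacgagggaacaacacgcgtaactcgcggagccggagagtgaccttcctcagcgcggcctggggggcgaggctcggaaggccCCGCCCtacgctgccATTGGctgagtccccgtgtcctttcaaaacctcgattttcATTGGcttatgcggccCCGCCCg

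The capitals in the Pim1 promoter are 6 GC boxes (GGGCGG), a motif bound by the SP1 family. Its G and C content was 82.5%, reached or exceeded by 0.575% of 32851 promoter windows of the same length, whose median was 51.5%. In Pim2 the capitals are 2 octamers (ATTTGCAT), the motif of the OCT factors, and 1 CCAAT box, and 57.5% of its bases were G or C. Those of Pim3 are 2 CCAAT boxes and 2 GC boxes, at 65% G and C. A GC box was found in 24.6% of all promoter windows, a CCAAT box in 28.4% and an octamer in 1.32%, counting both strands.

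None of the 3 windows held the STAT motif TTCNNNGAA (5.76% of all windows), the interferon response motif ISRE (2.4%), the AP-1 motif TGANTCA (5.57%), the cyclic AMP response motif TGACGTCA (0.828%), the E-box CACGTG (4.34%) or the NF-kB motif (3.13%). This says only that these letters are not in these windows. A further RefSeq start of Pim1, at position 29493085, had a window with 46.5% G and C and 1 E-box. The motifs were chosen after the promoters had been seen, and a match is a description, not a binding site.

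Short-lived transcripts often carry AU-rich elements in the 3′ untranslated region, which decay factors bind through the pentamer AUUUA. The stretch of 30 bases with most pentamers is shown for each gene, because it marks how the transcripts differ in this feature. The DNA sequence is from GRCm38 with the GENCODE vM21 models, plus strand, and the pentamers (ATTTA) are in capitals.
Pim1, chr17:29495690-29495719: ttaatgtATTTATTTATTTATTTAtttggt
Pim2, chrX:7883372-7883401: ctgcctggattATTTAaaaagccatgtgtg
Pim3, chr15:88865273-88865302: tggggctATTTAttgtttaATTTAtttgct

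Pim1 held 4 overlapping pentamers in this stretch and 5 in its 3′ untranslated region of 1365 bases. Pim2 held 2 in 915 bases. Pim3 held 5 in 964 bases, or 5.19 per kb, a density that 7.01% of 19745 genes reached. For comparison, the density was 3.66 per kb in Pim1, reached by 15.4% of genes, and 2.19 per kb in Pim2, reached by 34.1%. The longer motif TTATTTATT occurred 3 times in Pim1 and 0 times in Pim2 and Pim3.

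Identity of the aligned coding bases was 66.1% between Pim1 and Pim2, 74.3% between Pim1 and Pim3, and 66.7% between Pim2 and Pim3. The transcripts of the 3 genes shared 0 stretches of 50 bases with each other. The span of Pim1 in the GENCODE vM21 models, not the RefSeq span above, overlaps 1173 bases of Gm26885. That gene is annotated as antisense on the other strand and is not among the listed genes. Their transcripts shared 299 stretches of 50 bases on opposite strands. The sources used here do not state whether counting used strand, so reads of the shared part cannot be told apart. Pim2 shared 43 stretches of 50 bases with each of the pseudogenes Gm7645 and Gm21182, and none of 100 bases, so part of its count is uncertain if shorter reads were used.

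The libraries held 14954523 and 14235511 estimated counts with ruxolitinib, against 15419579 and 15096035 with vehicle. All 16 neutrophil markers of the list used were present, and their transcripts summed to 255980 and 269546 TPM (abundance scaled to transcript length and library size) with ruxolitinib, against 252157 and 275721 TPM with vehicle. Vehicle replicate 2 stood apart from the other libraries: its log2 ratio to vehicle replicate 1 had an SD of 0.72 over all genes tested, while that of ruxolitinib replicate 2 to replicate 1 had 0.45 and that of ruxolitinib replicate 1 to vehicle replicate 1 had 0.25. Ruxolitinib replicate 2 held more erythroid RNA, with 15 markers summing to 33544 and 68293 TPM with ruxolitinib, against 33954 and 32674 TPM with vehicle. It held less eosinophil, basophil and mast cell RNA, with 16 markers at 2563 and 777 TPM with ruxolitinib, against 2308 and 3605 TPM with vehicle. No marker of either list was at 0 in any library.

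Pim1 was by far the most abundant of the 3, at 381 and 389 TPM with ruxolitinib and 385 and 562 TPM with vehicle, which placed it between rank 222 and rank 327 of the 16566 genes. Pim2 was at 50.8 and 55.2 TPM with ruxolitinib and 59.5 and 22.0 TPM with vehicle, at ranks 1903 to 4456. Pim3 was at 17.0 and 19.0 TPM with ruxolitinib and 15.3 and 38.3 TPM with vehicle, at ranks 2987 to 5495. The order was Pim1 above Pim2 above Pim3 in 3 libraries, with vehicle replicate 2 as the exception, where Pim3 stood above Pim2. Over all libraries Pim1 lay clear of the other two, whereas the ranges of Pim2 and Pim3 overlapped.

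Of the summed TPM of the 3 genes, Pim1 made up 84.9% and 84.0% with ruxolitinib, against 83.7% and 90.3% with vehicle. Pim2 made up 11.3% and 11.9% with ruxolitinib, against 12.9% and 3.54% with vehicle. Pim3 made up 3.78% and 4.10% with ruxolitinib, against 3.32% and 6.16% with vehicle. Vehicle replicate 2 thus had the highest share of Pim1 and Pim3 and the lowest of Pim2, and the other 3 libraries lay within a few percentage points of each other. The ratio of Pim1 to Pim2 in TPM was 7.50 and 7.04 with ruxolitinib, against 6.47 and 25.5 with vehicle.

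**Figure D1:**
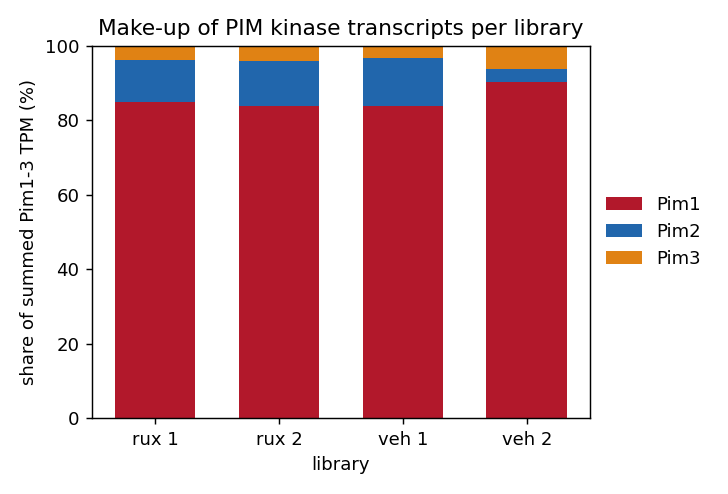
Share of each PIM kinase gene in the summed TPM of Pim1, Pim2 and Pim3 (vertical axis, percent) in each library, with the ruxolitinib libraries (rux) left of the vehicle libraries (veh). Pim1 made up 83.7% to 90.3%, and Pim2 had its smallest share, 3.54%, in vehicle replicate 2.

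Those shares rest on the gene lengths the authors' values imply, 1.63 kb for Pim1, 1.91 kb for Pim2 and 2.29 kb for Pim3. The longest GENCODE transcript of Pim1 has 2698 bases, 1.66 times the implied length. Another coding transcript of Pim1, Pim1-207, has 1794 bases and is nearer that length. The longest transcripts of Pim2 (2045 bases) and Pim3 (2427 bases) lie closer to their implied lengths. With these longest transcripts, an alternative chosen after seeing the data, the share of Pim1 was 78.4% and 77.2% with ruxolitinib, against 76.9% and 85.7% with vehicle.

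Ruxolitinib was set against vehicle to ask which neutrophil transcripts respond when JAK signalling is inhibited for 1 h. None of the 3 PIM genes differed between the groups beyond the spread between libraries. Of all genes tested, 0% passed the threshold (an adjusted p below 0.05) as higher with ruxolitinib and 0% as lower, so the absence of a call among the PIM genes matches the background. At an unadjusted p below 0.05, edgeR counted 225 genes, 65 higher and 160 lower with ruxolitinib, while DESeq2 counted 232 and limma-voom 188, and after adjustment both also called 0. With 2 libraries against 2, an exact permutation test of a single gene has 0.333 as its smallest possible p, and was left out.

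Pim1, the family member most closely tied to cytokine signalling in myeloid cells, had 5376 and 6185 estimated counts with ruxolitinib, against 5669 and 8075 with vehicle. These were 357 and 455 CPM (counts scaled to TMM-adjusted library size, not length) with ruxolitinib, against 360 and 527 CPM with vehicle. The first library of each group gave nearly equal values and the second of each group was higher, so that the groups overlapped. Pim1 averaged 406 ± 69.0 CPM with ruxolitinib and 443 ± 118 CPM with vehicle (SD, n = 2 each). Its log2 fold change was -0.13 ± 0.30 (SE), with a 95% interval of -0.78 to 0.53 and an adjusted p of 0.979 (edgeR's quasi-likelihood test, Benjamini-Hochberg). On the linear scale the interval runs from 0.581 to 1.44 times the vehicle level.

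Pim2, the member best known from lymphoid cells, had 841 and 1030 estimated counts with ruxolitinib, against 1027 and 371 with vehicle. These were 55.9 and 75.7 CPM with ruxolitinib, against 65.2 and 24.2 CPM with vehicle. Vehicle replicate 2 was the lowest of the 4 libraries, while vehicle replicate 1 lay between the ruxolitinib libraries, so the groups overlapped. Pim2 averaged 65.8 ± 14.0 CPM with ruxolitinib and 44.7 ± 29.0 CPM with vehicle (SD, n = 2 each). Its log2 fold change was 0.56 ± 0.41 (SE), with a 95% interval of -0.35 to 1.47 and an adjusted p of 0.975 (edgeR). The interval reaches from 0.782 to 2.77 times the vehicle level.

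Pim3, described mainly in epithelial and endocrine tissues, had 336 and 424 estimated counts with ruxolitinib, against 316 and 774 with vehicle. These were 22.3 and 31.2 CPM with ruxolitinib, against 20.1 and 50.5 CPM with vehicle. Both ruxolitinib libraries lay between the vehicle libraries, which were the lowest and the highest of the 4. Pim3 averaged 26.7 ± 6.26 CPM with ruxolitinib and 35.3 ± 21.5 CPM with vehicle (SD, n = 2 each). Its log2 fold change was -0.40 ± 0.41 (SE), with a 95% interval of -1.30 to 0.50 and an adjusted p of 0.975 (edgeR), or 0.407 to 1.41 times the vehicle level.

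**Figure D2:**
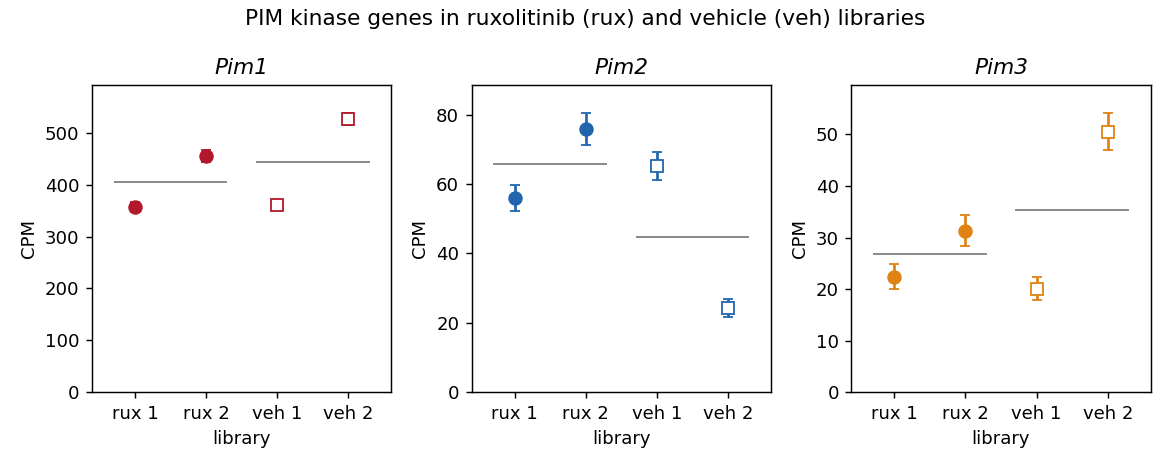
CPM of Pim1, Pim2 and Pim3 (vertical axes, each from 0) in the ruxolitinib libraries (rux, filled circles) and the vehicle libraries (veh, open squares), where grey lines are group means and bars are 95% counting intervals. In all 3 panels the values of the groups overlap, and the vehicle libraries lie farther apart than the ruxolitinib libraries do, for Pim3 at 22.3 and 31.2 CPM with ruxolitinib and 20.1 and 50.5 CPM with vehicle.

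The median of the 3 log2 fold changes was that of Pim1, -0.13, beside a median of -0.0050 over all genes tested. Differences between the PIM genes in their response were not tested, and their intervals overlapped. In bulk RNA, fewer cells of a type and less RNA per cell cannot be told apart, and this holds for each of the 3 genes.

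Within the vehicle group the PIM genes split. Vehicle replicate 2 held 1.46 times as much Pim1 as vehicle replicate 1 and 2.52 times as much Pim3, with a 95% counting interval of 2.20 to 2.88 for Pim3. It held 2.70-fold less Pim2, a ratio of 0.371 with a counting interval of 0.329 to 0.418. Of all genes tested, 2.74% were as far up as Pim3 between these libraries, 18.5% as far up as Pim1, and 2.93% as far down as Pim2. Within the ruxolitinib group all 3 were higher in replicate 2, by 1.27 times for Pim1, 1.36 times for Pim2 and 1.40 times for Pim3 in CPM.

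**Figure D3:**
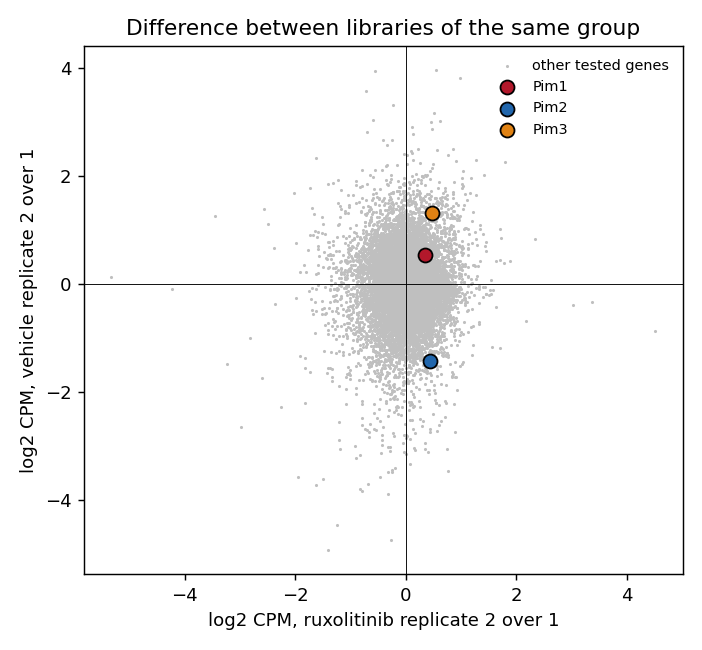
Log2 ratio of CPM between the 2 libraries of a group for each gene tested (grey points) and for the PIM genes (coloured), with ruxolitinib replicate 2 over 1 on the horizontal axis and vehicle replicate 2 over 1 on the vertical axis. Pim3 and Pim1 lie above 0 on the vertical axis, at 1.33 and 0.55, and Pim2 lies below it at -1.43.

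The difference within the ruxolitinib group depended on the scale. In TPM, ruxolitinib replicate 2 was 1.02 times replicate 1 for Pim1, 1.09 times for Pim2 and 1.12 times for Pim3. The authors' FPKM values (fragments scaled to gene length and depth) summed to 578586 and 684171 with ruxolitinib, against 585245 and 584912 with vehicle, so ruxolitinib replicate 2 had a distinct relation between counts and length. That library was also the one with more erythroid RNA. The part of either in the PIM gene values was not tested.

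Set against single vehicle libraries, ruxolitinib replicate 1 was close to vehicle replicate 1: its CPM was 0.992 times that library's for Pim1, 0.857 times for Pim2 and 1.11 times for Pim3. Against vehicle replicate 2 the same ruxolitinib library was at 0.678 times for Pim1, 2.31 times for Pim2 and 0.442 times for Pim3. Which vehicle library was used thus set the direction for Pim2 and Pim3 in ruxolitinib replicate 1. Ruxolitinib replicate 2 was at 1.26 times vehicle replicate 1 for Pim1, 1.16 times for Pim2 (0.929 times in TPM) and 1.55 times for Pim3. Against vehicle replicate 2 it was at 0.864 times for Pim1, 3.13 times for Pim2 and 0.618 times for Pim3. For Pim1 and Pim3 the direction in ruxolitinib replicate 2 differed between the vehicle libraries in CPM. In TPM this library was at 1.01 times vehicle replicate 1 for Pim1, nearly level, and at 1.24 times for Pim3.

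Without vehicle replicate 1, Pim2 and Pim3 passed the test. The log2 fold change of Pim2 was then 1.45 ± 0.30 (SE), with an adjusted p of 0.000338, and that of Pim3 was -0.91 ± 0.28, with an adjusted p of 0.0184 (edgeR). Pim1, at -0.36 ± 0.30, did not pass. In that fit 7.13% of all genes tested were called higher with ruxolitinib and 6.62% lower, and the single vehicle library left takes its spread from the ruxolitinib pair.

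Without vehicle replicate 2 no PIM gene passed. The log2 fold change was 0.16 ± 0.31 for Pim1, 0.0037 ± 0.28 for Pim2 and 0.40 ± 0.30 for Pim3 (SE), so the direction of Pim1 and Pim3 turned against that of the fit with all libraries. Pim1 also turned, to 0.05 ± 0.42, without ruxolitinib replicate 1. The calls of Pim2 and Pim3 therefore rest on a comparison with vehicle replicate 2 alone.

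**Figure D4:**
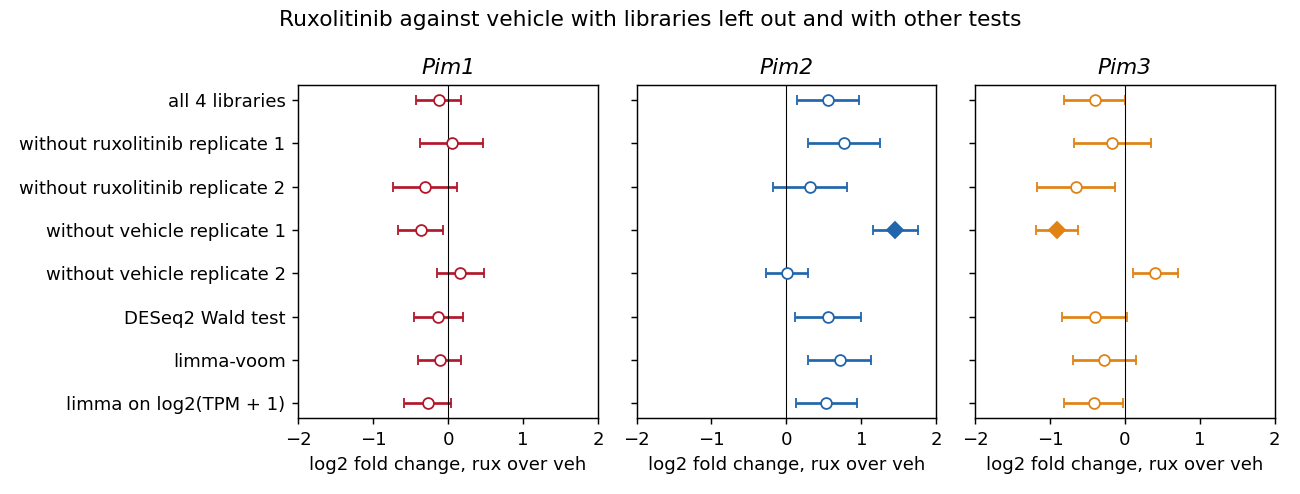
Log2 fold change of ruxolitinib over vehicle (horizontal axes) with its SE for Pim1, Pim2 and Pim3, with all 4 libraries, with each library left out and with other tests (rows), where filled diamonds mark an adjusted p below 0.05. Only the fit without vehicle replicate 1 has filled symbols, at 1.45 for Pim2 and -0.91 for Pim3.

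The genes that lead to and from the PIM kinases were read from lists written from general knowledge. No member of any list passed the test with all 4 libraries, and members are given from the 3 with the smallest unadjusted p in each list. At an unadjusted p below 0.05 (edgeR), the lists held from 0 of 28 members, for the PIM substrates, to 4 of 30, for the NF-kB genes. The smaller list of PIM protein turnover held 2 of 12, and of all genes tested 1.94% were below that p. Where a list's groups are compared, 14.5% of all genes tested had both ruxolitinib libraries above both vehicle libraries and 12.8% had both below, and some genes stand in more than 1 list. Over all genes the median log2 ratio of vehicle replicate 2 to replicate 1 was -0.0063.

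Upstream of the PIM genes stand the cytokine receptors, JAKs and STATs, of which 28 were tested, with a median log2 fold change of -0.05, 13 above and 15 below 0. Il10ra, the ligand-binding chain of the interleukin 10 receptor, was at 223 and 350 CPM with ruxolitinib, against 198 and 116 CPM with vehicle. Its groups did not overlap. Il6ra, the interleukin 6 receptor, was at 96.0 and 66.0 CPM with ruxolitinib, against 95.6 and 126 CPM with vehicle, and its groups overlapped. Without vehicle replicate 1, 14.3% of the list passed as higher (4 genes) and 7.14% as lower (2 genes), beside 7.13% and 6.62% of all genes. The list median lay between -0.13 and 0.01 when single libraries were left out.

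Genes known to be induced by STAT proteins, the class to which the PIM genes belong, numbered 30, with a median log2 fold change of -0.13, equal to that of Pim1 to this precision, and with 12 above and 18 below 0. Both ruxolitinib libraries lay above both vehicle libraries for 3 of them and below for 4. Osm (oncostatin M, a cytokine of the interleukin 6 family) stood at 56.3 and 55.5 CPM with ruxolitinib, against 63.0 and 226 CPM with vehicle. Gadd45g, a stress response gene, was at 25.3 and 26.8 CPM with ruxolitinib, against 32.4 and 83.0 CPM with vehicle. For both, the ruxolitinib libraries lay below both vehicle libraries, and most of the difference was in vehicle replicate 2.

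Junb, which encodes a component of AP-1, was at 389 and 498 CPM with ruxolitinib, against 409 and 1455 CPM with vehicle. Among the feedback inhibitors of JAK signalling, Socs1 was at 7.31 and 9.93 CPM with ruxolitinib, against 7.37 and 19.4 CPM with vehicle. In each case vehicle replicate 2 was the highest library and the other 3 were closer together, as for Pim3. The list's median log2 ratio of vehicle replicate 2 to replicate 1 was 0.46. Without vehicle replicate 1, 10% of its members passed as higher (3 genes) and 26.7% as lower (8 genes), beside 7.13% and 6.62% of all genes. The list median was -0.35 in that fit, and without vehicle replicate 2 the list's median log2 fold change was 0.07.

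NF-kB pathway genes and targets leaned the other way, with 30 genes at a median log2 fold change of 0.50, 26 above and 4 below 0, and 10 with both ruxolitinib libraries above both vehicle libraries. Nfkbiz, an inducible IkB protein, was at 818 and 1469 CPM with ruxolitinib, against 701 and 589 CPM with vehicle. Rel, an NF-kB subunit, was at 195 and 259 CPM with ruxolitinib, against 168 and 98.1 CPM with vehicle, and neither overlapped between groups. Cxcl2, a neutrophil chemoattractant, ran against these at 239 and 252 CPM with ruxolitinib, against 249 and 754 CPM with vehicle.

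The median log2 ratio of vehicle replicate 2 to replicate 1 was -0.93 over the NF-kB list, the direction in which Pim2 also differed between those libraries. Without vehicle replicate 1, 60% of the members passed as higher with ruxolitinib (18 genes) and 10% as lower (3 genes), beside 7.13% and 6.62% of all genes, and the median log2 fold change was 1.12. Without vehicle replicate 2 that median was 0.18 and 0 members passed.

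Transcripts of PIM substrates and effectors, 28 in number, had a median log2 fold change of -0.03, 12 above and 16 below 0. Irs1, an insulin receptor adaptor, was at 8.64 and 11.7 CPM with ruxolitinib, against 7.68 and 5.22 CPM with vehicle. Skp2, a subunit of the ubiquitin ligase that degrades the cell cycle inhibitor p27, was at 4.05 and 2.87 CPM with ruxolitinib, against 2.79 and 2.09 CPM with vehicle. Neither gene overlapped between groups, and the margin for Skp2 was small. Socs1, given above, is also a described substrate. In the fit that left out vehicle replicate 1, 3.57% of the list passed as lower (1 gene) and 0% as higher, beside 6.62% and 7.13% of all genes. The list median was -0.15 in that fit and 0.07 without vehicle replicate 2.

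Among 12 genes of PIM protein turnover, chaperones and a phosphatase described to stabilise or remove the kinases, the median log2 fold change was 0.04 (-0.11 on the TPM scale, where the median of all genes was -0.13), with 6 above and 6 below 0. The inducible heat shock proteins stood out in vehicle replicate 2. Hspa1b was at 1.53 and 2.43 CPM with ruxolitinib, against 2.48 and 21.0 CPM with vehicle, and Hspa1a at 1.86 and 1.99 CPM with ruxolitinib, against 2.35 and 13.6 CPM with vehicle. Hspa8, the constitutive HSP70, was at 475 and 549 CPM with ruxolitinib, against 480 and 869 CPM with vehicle. With the replicate block 1 member of the list passed (edgeR), beside 16 of all 11611 genes tested. The list median lay between -0.08 and 0.15 when single libraries were left out.

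The decay factors that read AU-rich and stem-loop elements numbered 15, with a median log2 fold change of 0.03 (-0.12 on the TPM scale), 9 above and 6 below 0. Zfp36 encodes tristetraprolin, a factor that binds AUUUA pentamers such as those shown for the PIM genes. Zfp36 was at 709 and 744 CPM with ruxolitinib, against 786 and 2455 CPM with vehicle. Its relative Zfp36l2 was at 266 and 201 CPM with ruxolitinib, against 262 and 421 CPM with vehicle. Zc3h12a, which encodes the endonuclease regnase-1, was lower in vehicle replicate 2, at 334 and 342 CPM with ruxolitinib, against 310 and 174 CPM with vehicle. When vehicle replicate 1 was left out, 2 of the 15 passed as higher and 2 as lower, beside 7.13% and 6.62% of all genes, and the list median lay between -0.02 and 0.07 when single libraries were left out.

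The AKT and mTORC1 pathway, which acts on translation and survival in parallel with the PIM kinases, had 27 genes tested and a median log2 fold change of -0.15, 8 above and 19 below 0. Sgk1, a kinase related to AKT, was at 91.3 and 74.6 CPM with ruxolitinib, against 97.1 and 307 CPM with vehicle. Pik3r5, the regulatory subunit of PI3K gamma, was at 77.1 and 66.1 CPM with ruxolitinib, against 71.9 and 200 CPM with vehicle. Rps6ka3, the kinase RSK2, was at 69.2 and 64.0 CPM with ruxolitinib, against 69.0 and 129 CPM with vehicle. All 3 were highest in vehicle replicate 2, and over the whole list the median log2 ratio of vehicle replicate 2 to replicate 1 was 0.28. The list's median log2 fold change was -0.0080 without vehicle replicate 2 and -0.30 without vehicle replicate 1. With vehicle replicate 1 left out, 3.70% of the list passed as higher (1 gene) and 14.8% as lower (4 genes), beside 7.13% and 6.62% of all genes.

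Kinases of the calcium/calmodulin-dependent group, to which the PIM family belongs by sequence, numbered 40 and had a median log2 fold change of -0.22, 12 above and 28 below 0. Sik1, a salt-inducible kinase, was at 119 and 124 CPM with ruxolitinib, against 113 and 391 CPM with vehicle. Prkd2, a protein kinase D, was at 64.9 and 59.6 CPM with ruxolitinib, against 66.2 and 161 CPM with vehicle, and Mknk1, a kinase of the cap-binding factor eIF4E, was at 104 and 74.0 CPM with ruxolitinib, against 102 and 170 CPM with vehicle. As for Pim1 and Pim3, vehicle replicate 2 was the highest library in each. Over the whole list the median log2 ratio of vehicle replicate 2 to replicate 1 was 0.28. The list's median log2 fold change was -0.07 without vehicle replicate 2 and -0.09 without ruxolitinib replicate 2. It was -0.29 without vehicle replicate 1 and -0.27 without ruxolitinib replicate 1. Leaving out vehicle replicate 1 gave 7.50% of the list passing as higher (3 genes) and 12.5% as lower (5 genes), beside 7.13% and 6.62% of all genes.

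**Figure D5:**
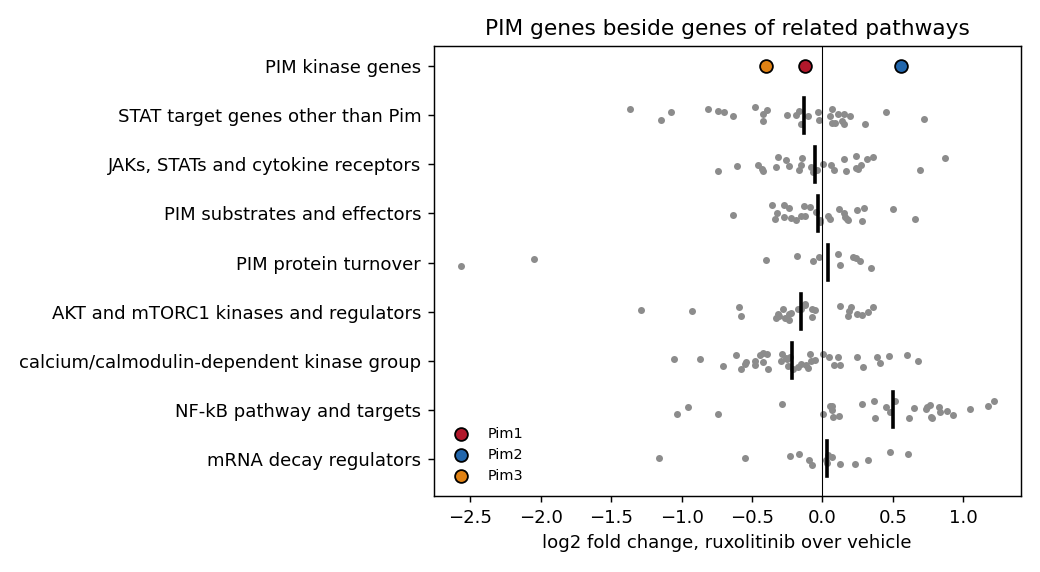
Log2 fold change of ruxolitinib over vehicle (horizontal axis) for the PIM genes and for each tested gene of the related lists (rows), where black bars are list medians. Medians lie between -0.22 and 0.50, the highest being that of the NF-kB list, and Pim1, Pim2 and Pim3 lie at -0.13, 0.56 and -0.40.

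Other genes followed the pattern of each PIM gene over the 4 libraries closely, as measured by the root mean square difference of log2 CPM centred on each gene's mean, among 8703 genes with a mean of at least 5 CPM. Among the nearest to Pim1 were Sgpp1 at 0.00796, Hp at 0.0139 and Ppm1m at 0.0216, and 312 genes (3.58%) lay within 0.1 of it. Nearest to Pim2 were Mrpl54 at 0.0335, Sbds at 0.0378, Pus1 at 0.0468 and Tmem70 at 0.0494, with 23 genes (0.264%) within 0.1. Nearest to Pim3 were Sbk1 at 0.0122, Ehmt1 at 0.0144, Map3k4 at 0.0343 and Itpk1 at 0.0424, with 22 genes (0.253%) within 0.1. Pim1 varied least of the 3 over the libraries, and a limit of fixed size takes in more genes for a gene that varies less, so these shares are not compared. With 4 libraries the neighbours are a description only.

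These neighbours encode proteins of varied kinds. Sgpp1 is a phosphatase of sphingosine 1-phosphate and Hp is haptoglobin, at 950 and 1183 CPM with ruxolitinib, against 959 and 1396 CPM with vehicle. Mrpl54 is a mitochondrial ribosomal protein and Sbds a ribosome maturation factor, at 34.7 and 47.7 CPM with ruxolitinib, against 40.4 and 16.0 CPM with vehicle. Sbk1 is a kinase and Ehmt1 a histone methyltransferase, at 18.1 and 25.4 CPM with ruxolitinib, against 16.5 and 42.1 CPM with vehicle. Between the PIM genes themselves the same measure was 0.29 for Pim1 and Pim3, 0.81 for Pim1 and Pim2 and 1.09 for Pim2 and Pim3.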

How the data were processed

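The tools named are Bowtie2, RSEM and DESeq2 and the build is GRCm38.p6, per the submitters' processing notes, while versions and annotation are not given in the sources used here. The authors' tables hold a read count per the file headers, which is an estimated count, as its decimals show (91.0% to 91.1% of values were whole within 1e-06), beside TPM and FPKM values scaled by the authors to depth and gene length. Groups came from the treatment label and replicate numbers from the sample titles.

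Estimated counts were rounded to whole numbers. R 4.3.3 with edgeR 4.0.16 kept genes by filterByExpr (a count of about 10, 15 in total), scaled by TMM and ran the quasi-likelihood test on group alone, with Benjamini-Hochberg adjustment over all 11611 genes. CPM values are on scaled library sizes. The common biological coefficient of variation was 25.7%, and counting intervals cover counting error only. An SE is the log2 fold change divided by the square root of F. Alternatives were RLE scaling, DESeq2 1.42.0, limma 3.58.1 (voom, and log2 of TPM plus a pseudocount of 1), filters of 1 count in any library or 50 counts in 2 libraries, a replicate block and leaving out each library. The procedure was also run on simulated counts with the same spread in every library. That run does not show how the test behaves with an outlying library such as vehicle replicate 2.

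The PIM genes, lists and rules were chosen with earlier results of these data known. The text names the PIM genes, the 3 members of each pathway list with the smallest unadjusted p, and the 4 genes most alike in pattern to each PIM gene, other than predicted genes, pseudogenes and Rik clones, and 2 genes that this rule picks are not reported here. B lineage markers summed to 1547 and 2171 TPM with ruxolitinib, against 1599 and 1814 TPM with vehicle. T and NK markers summed to 107 and 116 TPM with ruxolitinib, against 107 and 120 TPM with vehicle. Monocyte markers summed to 2101 and 2245 TPM with ruxolitinib, against 2201 and 2317 TPM with vehicle. A sum weights the most abundant markers, and single monocyte markers were less even. Over the 15 tested, the median log2 ratio of vehicle replicate 2 to replicate 1 was 0.77. Their median log2 fold change was -0.33, with 4 above and 11 below 0. Dendritic cell markers summed to 6592 and 9108 TPM with ruxolitinib, against 6972 and 5305 TPM with vehicle. None of their markers was at 0 in every library. Of the 16566 identifiers, 16466 matched RefSeq's table of GRCm38.p6, and coordinates count from 1. Python 3.11.15 with Biopython 1.88 was used for sequences.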

Additional observations from a re-analysis of the deposited data

How the results depend on the processing

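With all 4 libraries edgeR called 0 genes. With a replicate block it called 16 (9 higher and 7 lower with ruxolitinib), none of them a PIM gene, and leaving out a library gave between 2 and 1645 (1 to 853 higher, 1 to 792 lower), the most without vehicle replicate 1. Log2 fold changes with the replicate block were -0.11 for Pim1, 0.71 for Pim2 and -0.28 for Pim3. Whether the replicate numbers pair the libraries is not known. The differences between replicates of the 2 groups had a correlation of 0.04 across 11611 genes. That value cannot decide it, because vehicle replicate 2 stood apart from the other libraries. With a library left out, Pim1 ranged from -0.36 to 0.16 and turned positive without ruxolitinib replicate 1 (0.05) and without vehicle replicate 2 (0.16). Pim2 ranged from 0.0037 to 1.45, passing only without vehicle replicate 1, and Pim3 from -0.91 to 0.40, passing without vehicle replicate 1 and turning positive without vehicle replicate 2. With RLE scaling, DESeq2, limma-voom, limma on TPM and both count filters, each PIM gene kept its direction and did not pass. On the TPM scale the median of all genes moved to -0.13, beside -0.27 for Pim1, 0.53 for Pim2 and -0.42 for Pim3. The mean share of Pim1 over the libraries was 85.7% by TPM and 79.5% with the longest GENCODE transcripts. Of 88 list medians recomputed, 11 moved by more than the spread between replicates, 8 of them with a library left out, and of 88 counts of members called 10 moved. The cause was not tested. Depth was ample for the PIM genes, the smallest count being 316, so the spread between libraries and not counting limits these comparisons.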
